A study of Mus musculus with 12 samples.

Results

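SMC1, a smooth muscle population sorted from the adult mouse aorta and the fat around it, was set against Progenitor cells sorted from the same source. The comparison took 6 of the 12 libraries of the series, 3 of SMC1 and 3 of Progenitor, chosen by the count columns that carry these names. Both groups came from wild-type male CD-1 mice, an outbred stock, at 13 weeks of age, and the labels name no transgene, deletion or treatment in either. Aorta and attached fat were digested together with collagenase and dispase before flow cytometry, so both groups share that handling. The labels do not say which stretch of the aorta was taken, whether animals were pooled, or whether the Ao number shared by an SMC1 and a Progenitor library marks 1 mouse. All p-values thus rest on the variation among libraries, part of which may be technical. The antibodies and gates of the sort are not given in the sources used here, and a gene used as a gate cannot be told apart from a gene that the comparison found. The remaining 6 libraries, 3 of SMC2 and 3 of Intermediate cells from the same tissue, took part in the filter on low counts, the scaling and the estimate of spread, and are not described here.

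Smooth muscle cells of the vessel wall contract when calcium, bound to calmodulin, switches on the kinase that phosphorylates the myosin light chain, and they relax when myosin phosphatase, which nitric oxide and cGMP promote, undoes this. Their contractile genes are driven by serum response factor, a DNA-binding protein that sits on a short element called the CArG box, together with its coactivator myocardin. Interstitial progenitors of fat are fibroblast-like cells that carry Pdgfra and Cd34. In subcutaneous fat depots, cells with Dpp4 and Pi16 stand early in the line and give rise to committed preadipocytes. Such stromal cells are known for making interstitial collagen, decorin, complement factors and chemokines. The series title names the origin of thermogenic perivascular fat as its subject.

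Levels are given as CPM, counts relative to library size with TMM scaling, and means carry their SD over n = 3 libraries of each group. Changes are log2 values, SMC1 minus Progenitor, with their standard error. Each adjusted p comes from edgeR's quasi-likelihood test and is Benjamini-Hochberg corrected over the 19016 genes tested, and a gene is called where it lies under 0.05. The test called 9194 genes (48.3%), of which 4804 were higher (25.3%) and 4390 lower in SMC1 (23.1%), and the median log2 change of all genes was -0.005. The split depends on scaling, since upper-quartile factors gave 3783 higher and 5378 lower with a median of -0.187. Calls with a change of at least 2-fold came to 5805 (30.5%), 2585 of them higher (13.6%) and 3220 lower in SMC1 (16.9%), those of at least 16-fold to 329 higher and 461 lower. The 3 SMC1 libraries did not overlap the 3 Progenitor libraries at 10723 genes (56.4%). Where a gene is given library by library, in replicate order, its groups did not overlap, except at Lyz2, Il1b, Cxcl2 and Ucp1. Depth ran from 17742172 to 20688096 counts in SMC1 and from 15014976 to 22647175 in Progenitor. Across genes, log2 CPM of library pairs correlated at 0.979 to 0.982 within SMC1, at 0.977 to 0.978 within Progenitor and at 0.850 to 0.876 between groups.

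**Figure D1:**
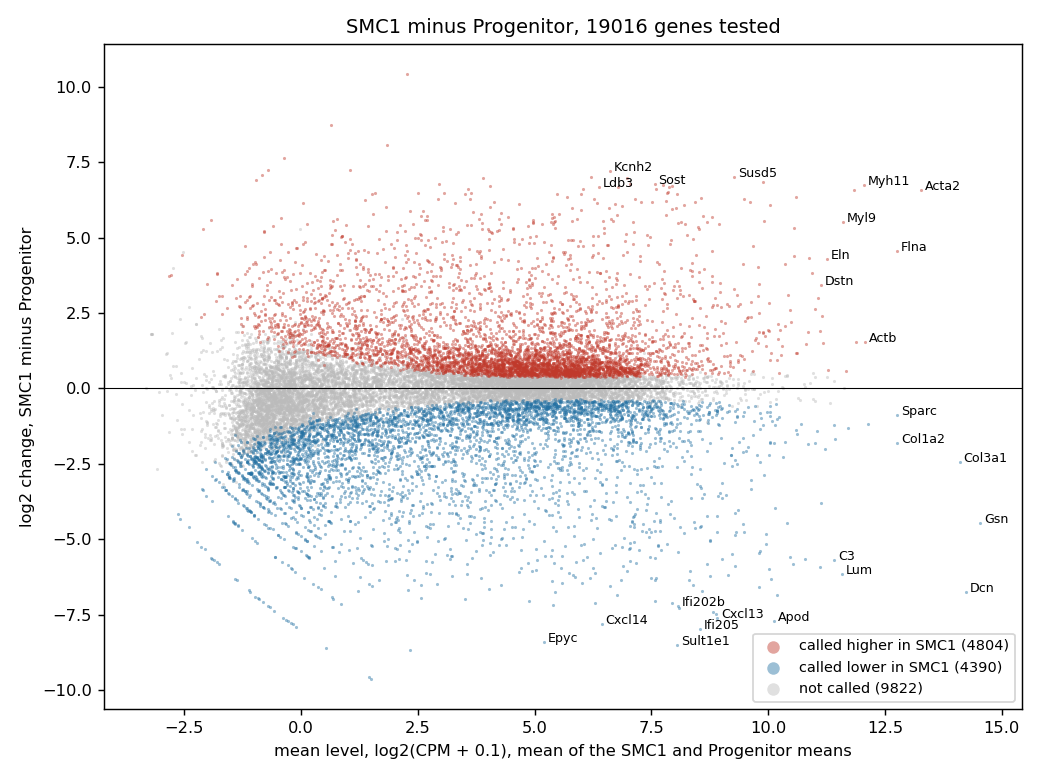
Each point is 1 of 19016 tested genes, with its mean level over SMC1 and Progenitor on a log2 CPM scale (x) and its log2 change, SMC1 minus Progenitor (y); red points passed the test on the higher side of SMC1, blue points on the lower side, and grey points on neither. The contractile genes Acta2, Myh11 and Flna lie at the upper right and the matrix genes Dcn, Gsn and Col3a1 at the lower right, so some of the most abundant RNAs of each population are also far from 0.

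Acta2, the smooth muscle actin, took 1.75 to 2.04% of all counts in SMC1, and Flna, an actin crosslinker, took 1.17 to 1.45%. In Progenitor the leading genes were Gsn, which severs actin and is secreted, at 4.06 to 4.98%, Dcn, which encodes the collagen-binding proteoglycan decorin, at 3.13 to 4.43%, and Col3a1, the type III collagen chain, at 2.36 to 3.65%. Dcn stood at 562, 300.1 and 206 CPM in SMC1, against 45692, 35889.9 and 33264 CPM in Progenitor, with a log2 change of -6.75 ± 0.40 (adjusted p = 4.36e-11). Every Progenitor library exceeded every SMC1 library at Dcn by more than an order of magnitude. Gsn had 2087 ± 471 CPM in SMC1, against 45672 ± 6279.6 CPM in Progenitor, a log2 change of -4.45 ± 0.25, and was still abundant in SMC1. Flna had 13245 ± 1618 CPM in SMC1, against 565 ± 228 CPM in Progenitor, a log2 change of 4.55 ± 0.30.

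Defining genes of both cell types were read beside the labels, which is no independent check where a gene served as a gate of the sort. Acta2 (chromosome 19, 34241090 to 34255590 in GRCm38) had 21050.2, 16910.3 and 20494 CPM in SMC1, against 96.8, 282 and 229.6 CPM in Progenitor. Myh11, the smooth muscle myosin heavy chain (chromosome 16, 14194535 to 14291372), had 8092, 7617 and 9664 CPM in SMC1, against 31.9, 91.5 and 114 CPM in Progenitor. Neither gene's groups came near to overlapping, and the log2 changes were 6.59 ± 0.37 for Acta2 (adjusted p = 1.44e-11) and 6.74 ± 0.43 for Myh11 (adjusted p = 5.07e-10). Cnn1, the actin-binding protein calponin of differentiated smooth muscle, had 3450.4, 2961 and 2808 CPM in SMC1, against 19.3, 52.1 and 42.1 CPM in Progenitor, a log2 change of 6.35 ± 0.36. Myocd, the coactivator named above, had 187, 243 and 316 CPM in SMC1, against 0.775, 2.40 and 2.97 CPM in Progenitor, which gave a log2 change of 6.97 ± 0.41 (adjusted p = 5.05e-10). Progenitor replicate 1 was the lowest of the 6 libraries at each of these 4 genes.

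On the other side, Pdgfra, the receptor of platelet-derived growth factor that marks stromal progenitors (chromosome 5, 75152292 to 75198215), had 27.6, 23.8 and 26.4 CPM in SMC1, against 814, 582 and 1131 CPM in Progenitor. Cd34, a sialomucin of the cell surface, had 75.1, 48.5 and 40.0 CPM in SMC1, against 1984, 1919 and 1905 CPM in Progenitor, and Ly6a, the surface antigen Sca-1, had 80.8, 42.2 and 31.0 CPM in SMC1, against 3726, 2701 and 2238 CPM in Progenitor. All 3 genes stood far above SMC1 in each Progenitor library, with log2 changes of -5.02 ± 0.25 for Pdgfra (adjusted p = 1.94e-12), -5.15 ± 0.34 for Cd34 and -5.81 ± 0.41 for Ly6a. Dpp4, a surface peptidase, had 12.1, 6.20 and 4.28 CPM in SMC1, against 299.6, 185 and 218 CPM in Progenitor, for a log2 change of -4.95 ± 0.45 (adjusted p = 4.28e-07). Pi16, a peptidase inhibitor found with Dpp4 in early adipose progenitors, had 42.2 ± 26.3 CPM in SMC1, against 1772 ± 509 CPM in Progenitor, a log2 change of -5.39 ± 0.53. Pparg, Adipoq and Ucp1 were low in both groups. Pparg, the transcription factor that drives adipocyte differentiation, had 12.4, 6.76 and 5.33 CPM in SMC1, against 38.1, 18.1 and 27.6 CPM in Progenitor (adjusted p = 6.03e-05), and Adipoq, the adipocyte hormone, averaged 1.23 CPM in SMC1 and 4.39 CPM in Progenitor (adjusted p = 0.00357). Ucp1, the uncoupling protein of thermogenic fat, had 0.356, 0 and 0.0586 CPM in SMC1, against 0.911, 0.267 and 0.442 CPM in Progenitor and was not called (adjusted p = 0.0782). Its SMC1 libraries held 7, 0 and 1 counts, and it was called lower without the count filter (adjusted p = 0.0452) and without SMC1 replicate 1 (adjusted p = 0.00793). Ptprc, the pan-leukocyte marker CD45, was not called either, with 12.7 CPM in SMC1 and 9.51 CPM in Progenitor.

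**Figure D2:**
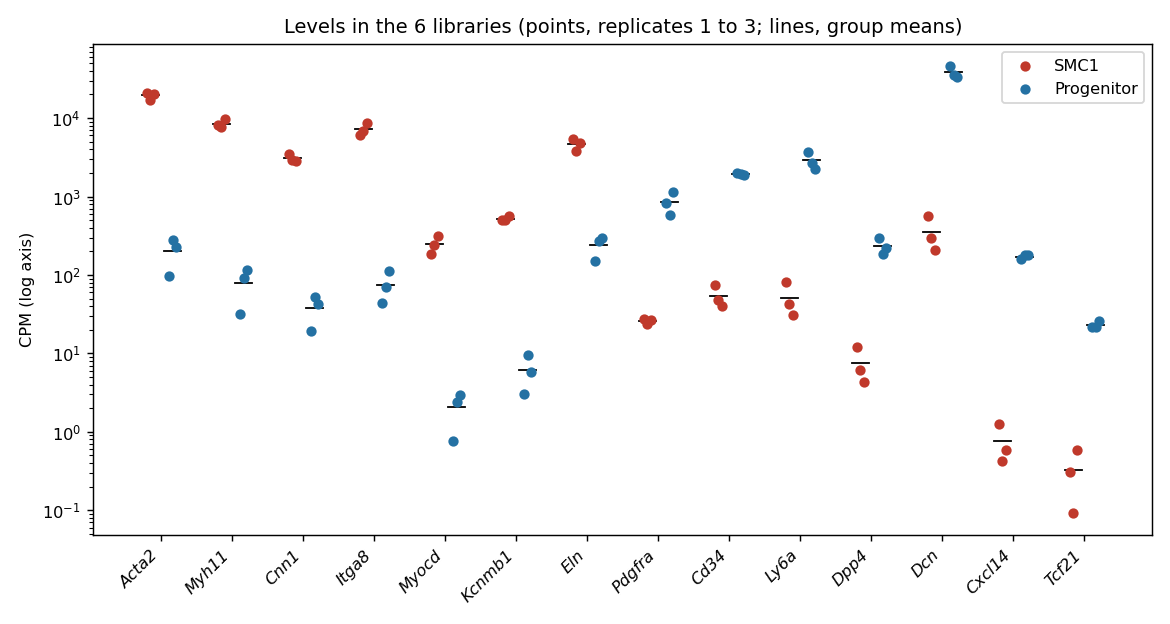
CPM on a log axis for 14 genes (x), with the 3 SMC1 libraries as red points left of the 3 Progenitor libraries as blue points and black lines at the group means. The groups do not overlap at any of the 14 genes, nor do they at 56.4% of all genes tested. The 14 were picked from called genes with large changes, so their separation follows in part from that choice. Acta2 lies at 21050.2, 16910.3 and 20494 CPM in SMC1 and at 96.8, 282 and 229.6 CPM in Progenitor, and Dcn shows the opposite order.

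Summed per library, contractile genes came to 50110 to 58590 CPM in SMC1, against 1746 to 2487 CPM in Progenitor. Markers of interstitial progenitors came to 2453 to 2520 CPM in SMC1, against 14760 to 17440 CPM in Progenitor. Of 23 tested markers of interstitial progenitors, 17 fell and 3 rose in SMC1, with a median log2 change of -4.51. Scara5, a ferritin receptor, had 26.4 ± 14.1 CPM in SMC1, against 2110.01 ± 259.5 CPM in Progenitor, a log2 change of -6.32 ± 0.36. Tnfaip6, which modifies hyaluronan, had 10.2 ± 3.03 CPM in SMC1, against 386 ± 49.4 CPM in Progenitor, and Opcml, a surface adhesion protein, had 0.764, 0.933 and 0.996 CPM in SMC1, against 51.5, 57.5 and 71.1 CPM in Progenitor. The SMC1 levels of Opcml stood below 1 CPM in each library. The 3 members that went the other way were Entpd1, the ectonucleotidase CD39, with 599.8 ± 62.1 CPM in SMC1, against 39.2 ± 9.56 CPM in Progenitor, Limch1, an activator of non-muscle myosin, with 246 ± 34.6 CPM in SMC1, against 17.9 ± 2.501 CPM in Progenitor, and Efhd1, a mitochondrial calcium-binding protein, with 152 CPM in SMC1, against 21.6 CPM in Progenitor; exons of Efhd1 overlap another gene over 11.95% of their length. Sema3c, Cd44 and Nt5e were not called, and Sema3c had 466 CPM in SMC1 and 362 CPM in Progenitor. Cd44 and Nt5e were each called lower in 4 of 14 alternatives, and without SMC1 replicate 1 the log2 change of Nt5e was -1.13 (adjusted p = 0.0344). Markers of committed preadipocytes fell at 14 of 19 tested genes and rose at 1. Lpl, the lipase that releases fatty acids from lipoproteins, had 31.1, 10.7 and 13.9 CPM in SMC1, against 2282, 1327 and 1693 CPM in Progenitor, with a log2 change of -6.57 ± 0.40 (adjusted p = 3.96e-10). Ebf2, a transcription factor of brown fat precursors, had 3.60 ± 1.25 CPM in SMC1, against 128 ± 15.8 CPM in Progenitor, Ggt5, which processes leukotrienes and glutathione, had 4.15 CPM in SMC1, against 100.97 CPM in Progenitor, and the heparan sulfate proteoglycan Gpc3 had 26.7 CPM in SMC1, against 659 CPM in Progenitor. The member that rose was Fabp4, a fatty acid carrier of adipocytes and capillaries, with 278, 169.9 and 137 CPM in SMC1, against 119.9, 121 and 96.8 CPM in Progenitor (adjusted p = 0.0073). Without SMC1 replicate 1 its log2 change was 0.37 (adjusted p = 0.195).

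Markers of other cell types that the tissue holds were summed in each library. Endothelial markers came to 473 to 687 CPM in SMC1, against 217 to 322 CPM in Progenitor, and 11 of 17 were called higher in SMC1. Pecam1, an adhesion molecule of endothelium, platelets and leukocytes, had 218, 209.9 and 200.4 CPM in SMC1, against 27.3, 49.5 and 53.6 CPM in Progenitor (adjusted p = 1.77e-05), well apart in all 6 libraries. Erg, an endothelial transcription factor, had 17.7 ± 2.57 CPM in SMC1, against 0.477 ± 0.299 CPM in Progenitor. Tek, the angiopoietin receptor, was lower with 28.7 ± 10.6 CPM in SMC1, against 113 ± 17.2 CPM in Progenitor (adjusted p = 1.73e-05). Leukocyte markers came to 823 CPM in SMC1 replicate 1 and to 175 and 188 CPM in replicates 2 and 3, against 157 to 219 CPM in Progenitor. Lysozyme (Lyz2) alone had 482, 85.2 and 100.2 CPM in SMC1, against 83.4, 109 and 107 CPM in Progenitor and was not called (adjusted p = 0.174). SMC1 replicate 1 thus stood apart from the other 5 libraries in leukocyte RNA. Of 20 leukocyte markers 5 were called higher, a share near the 25.3% of all genes. Without SMC1 replicate 1 no leukocyte marker and 3 endothelial markers were called higher. No endothelial or leukocyte marker was at 0 in any of the 6 libraries. The part of either cell type in other results was not tested. In such bulk samples fewer cells of a type and less RNA per cell cannot be told apart.

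Glial and neuronal markers came to 401 to 614 CPM in SMC1, against 39.7 to 44.3 CPM in Progenitor, and most of the SMC1 sum was Ncam1, an adhesion molecule, with 439 ± 104 CPM in SMC1, against 8.36 ± 3.51 CPM in Progenitor. The defining Schwann cell gene Sox10, picked after its values were seen, averaged 0.931 CPM in SMC1 and was at 0 in Progenitor replicates 2 and 3. Mural cell markers came to 4276 to 5056 CPM in SMC1, against 1579 to 2269 CPM in Progenitor, with 9 of 15 called higher and 5 lower. Mcam, the adhesion molecule CD146, had 748 ± 85.7 CPM in SMC1, against 9.48 ± 4.14 CPM in Progenitor, and Cspg4, the proteoglycan NG2, had 579.98 ± 137 CPM in SMC1, against 13.3 ± 4.76 CPM in Progenitor. Steap4, a metalloreductase listed among pericyte markers, was instead lower in SMC1 with 15.3 ± 4.10 CPM in SMC1, against 1117 ± 306 CPM in Progenitor (adjusted p = 9.49e-13). Sums for mesothelium (68.5 to 118 CPM in SMC1, against 98.1 to 139 CPM in Progenitor) and skeletal and cardiac muscle (23.1 to 35.4 CPM in SMC1, against 29.7 to 40.4 CPM in Progenitor) overlapped between groups. Adipocyte markers came to 159 to 310 CPM in SMC1, against 120 to 146 CPM in Progenitor, mostly Fabp4. Of 13 tested adipocyte markers 2 were called higher and 4 lower in SMC1, with a median log2 change of -0.74. Calls made up 46.2% of these, near the 48.3% of all genes. Plasma cell markers came to 360 to 487 CPM in SMC1, against 591 to 687 CPM in Progenitor, mostly Xbp1, a secretory regulator that many cells express.

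**Figure D3:**
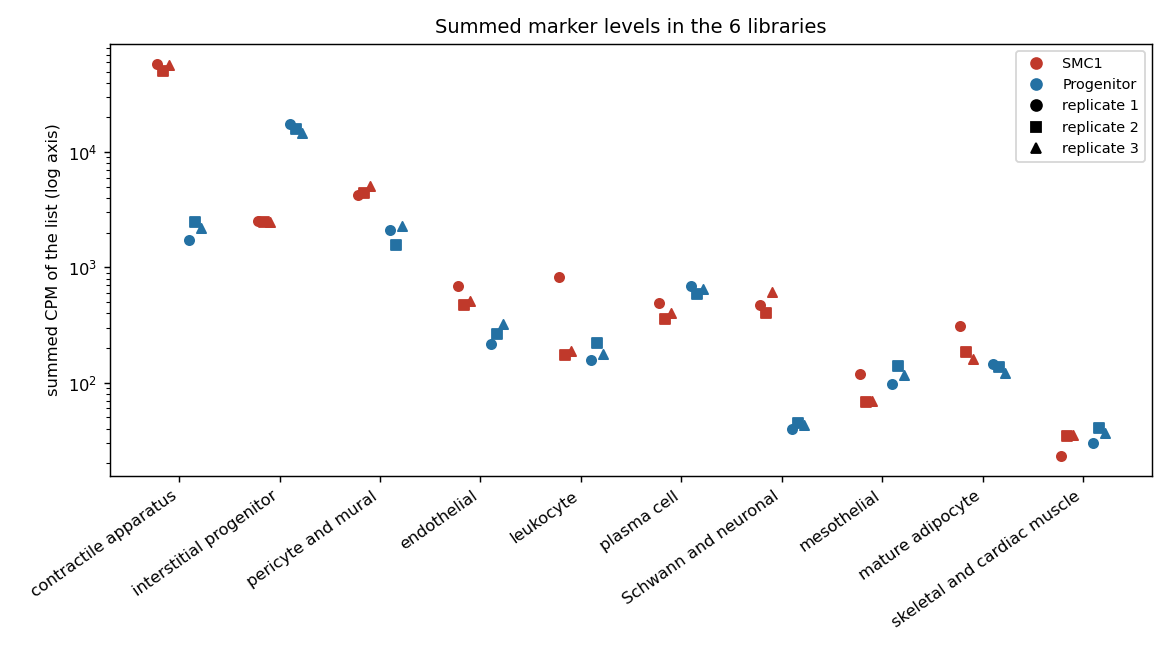
Summed CPM of 10 marker lists (x) in each of the 6 libraries on a log axis, SMC1 in red left of Progenitor in blue, with circles, squares and triangles for replicates 1, 2 and 3. The contractile and progenitor sums separate the groups in opposite directions, and SMC1 replicate 1 lies above the other 5 libraries in leukocyte markers.

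All 26 tested genes of the contractile apparatus were higher in SMC1, with a median log2 change of 5.18. The smallest p-values belonged to Pdlim3, which binds alpha-actinin at dense bodies, with 731, 697 and 700.3 CPM in SMC1, against 14.6, 21.6 and 18.1 CPM in Progenitor and a log2 change of 5.30 ± 0.22 (adjusted p = 4.87e-13), and to Pcp4l1, a small protein related to a calmodulin regulator, with 61.2 ± 5.92 CPM in SMC1, against 1.36 ± 0.192 CPM in Progenitor. Nexn, an actin filament protein, had 146 ± 13.5 CPM in SMC1, against 6.82 ± 1.45 CPM in Progenitor, and Synpo2, which links filamin to alpha-actinin, had 874 ± 140.3 CPM in SMC1, against 17.1 ± 5.72 CPM in Progenitor. Ldb3, a Z-disc protein of striated muscle, was among the 10 largest increases with 161, 145 and 188 CPM in SMC1, against 0.911, 1.13 and 2.91 CPM in Progenitor, a log2 change of 6.67 ± 0.33. Xirp1, another striated muscle scaffold that binds filamin, had 259.97 ± 21.8 CPM in SMC1, against 2.47 ± 1.41 CPM in Progenitor, a log2 change of 6.77 ± 0.38. Tagln, which encodes transgelin, had 49.5 CPM in SMC1, against 0.732 CPM in Progenitor, but 67.9% of its exon length is shared with another gene and its level is uncertain. The single gene of the list that changed less than 2-fold, picked out for that after its values were seen, was Des, which encodes the intermediate filament desmin.

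Paralogues of the contractile proteins differed in the size or direction of their changes. The 6 actins were all higher in SMC1, by 6.59 for Acta2, 6.21 for Actg2, the enteric smooth muscle form, 1.53 for the cytoplasmic Actb and 1.08 for Actg1. Per kilobase of exon, Acta2 stood at 8873 CPM in SMC1 and 92.4 CPM in Progenitor, and Actb at 2396 CPM in SMC1 and 828 CPM in Progenitor, so the smooth muscle form led in SMC1 and the cytoplasmic form in Progenitor. The striated forms Acta1 and Actc1 stayed under 3 CPM in SMC1, and the call for Actc1 was lost in 8 of the 12 alternatives that gave it a value, with adjusted p up to 0.358. Reads of such similar coding regions can be split between copies, so low actins beside an abundant one are uncertain. Tropomyosins, which wrap the actin filament, parted in direction. Tpm2 had 2224, 2049.9 and 1978 CPM in SMC1, against 20.01, 41.2 and 32.3 CPM in Progenitor and Tpm1 had 1662 ± 67.2 CPM in SMC1, against 103 ± 13.6 CPM in Progenitor, while Tpm3 had 88.2, 85.8 and 72.9 CPM in SMC1, against 158, 143 and 115 CPM in Progenitor, which gave a log2 change of -0.75 ± 0.17 (adjusted p = 0.000816). Tpm4 stood at 393 ± 20.2 CPM in SMC1, against 550.4 ± 66.7 CPM in Progenitor (adjusted p = 0.0343) and lost its call in 6 of 14 alternatives, with adjusted p from 0.0509 to 0.163 in those.

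The regulatory light chain of smooth muscle myosin, Myl9, had 6511, 5322 and 6346 CPM in SMC1, against 87.1, 185 and 129 CPM in Progenitor, for a log2 change of 5.50 ± 0.29 (adjusted p = 3.63e-12). Its non-muscle relatives changed by less than 2-fold and in opposite directions, by 0.78 ± 0.17 for Myl12a and -0.64 ± 0.17 for Myl12b, but their sequences are near-identical, and 19.9% and 26.7% of their exon bases overlap other genes. Among heavy chains, Myh11 rose by 6.74, the non-muscle form Myh10 by 3.05 with 513 ± 93.4 CPM in SMC1, against 62.0 ± 21.6 CPM in Progenitor, and Myh9 by 1.23 with 121 ± 26.6 CPM in SMC1, against 51.4 ± 12.8 CPM in Progenitor. Cnn1 rose by 6.35 and Cnn2 by 2.46, whereas Tagln2 was not called, with 302 CPM in SMC1 and 255 CPM in Progenitor and a 95% interval of the log2 change, not adjusted for the number of genes, of -0.25 to 0.74.

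Transcription factors of the smooth muscle programme were higher at 15 of 19 tested genes. Srf itself had 50.03, 32.8 and 47.4 CPM in SMC1, against 13.6, 17.7 and 20.2 CPM in Progenitor, a log2 change of 1.34 ± 0.19, far less than Myocd; Srf was picked after its values were seen. Mef2c, a MADS-box partner of myocardin, had 302 ± 25.4 CPM in SMC1, against 29.0 ± 1.34 CPM in Progenitor, a log2 change of 3.38 ± 0.21, and Mef2a had 306 ± 43.2 CPM in SMC1, against 79.6 ± 6.17 CPM in Progenitor. Hey2 and Heyl, repressors that Notch receptors induce, were higher, with Hey2 at 54.5 CPM in SMC1, against 5.33 CPM in Progenitor and Heyl at 309 CPM in SMC1, against 39.6 CPM in Progenitor. Foxs1, a forkhead factor of mural cells, had 16.9 ± 5.48 CPM in SMC1, against 2.66 ± 0.637 CPM in Progenitor. Tbx15, a T-box factor, was the only member called lower (adjusted p = 0.0491), and it lost that call in 5 of 14 alternatives. Tead1, a partner of the Hippo coactivators, was not called, with 12.4 CPM in SMC1 and 9.97 CPM in Progenitor and an interval of -0.08 to 0.73. Without Progenitor replicate 2 the log2 change of Tead1 was 0.55 (adjusted p = 0.0388).

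The element that serum response factor binds was searched in the promoters of the changed genes. RefSeq promoter windows of GRCm38.p6 were matched by symbol for 12614 of the 19016 genes, and the 250 bases before each start were scanned for the CArG box, whose pattern reads the same on both strands. Only the strict pattern was counted, CC, then A or T alone, then GG, over 10 bases. A box was present before the start of 10 of 232 genes called at least 16-fold higher in SMC1 (4.31%) and of 1 of 299 called at least 16-fold lower (0.334%), against 1.46% of the 12614 tested genes with a window. Among all called genes the shares were 2.20% of 3588 higher and 1.38% of 2966 lower. In the contractile list 3 of 20 windows held one, those of Ldb3, Myl6 and Myl9, and none of 16 in the progenitor marker list. The stretches around 8 of these boxes are shown because they belong to contractile genes or to genes at least 16-fold higher in SMC1 with a mean of at least 64 CPM; capitals mark the box, with 25 bases on either side, 5′ to 3′ on the strand of the gene.
Ldb3: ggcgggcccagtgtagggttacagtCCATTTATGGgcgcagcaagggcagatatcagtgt
Myl6: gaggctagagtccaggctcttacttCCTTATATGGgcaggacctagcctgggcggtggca
Myl9: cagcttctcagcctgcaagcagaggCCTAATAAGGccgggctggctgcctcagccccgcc
Myom1: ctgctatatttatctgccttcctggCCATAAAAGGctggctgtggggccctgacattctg
Asb2: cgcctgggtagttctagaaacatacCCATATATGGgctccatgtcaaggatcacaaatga
Lmcd1: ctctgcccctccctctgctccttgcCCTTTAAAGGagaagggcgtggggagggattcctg
Fbxl22: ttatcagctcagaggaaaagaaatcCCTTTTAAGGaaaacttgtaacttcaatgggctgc
Cbr2: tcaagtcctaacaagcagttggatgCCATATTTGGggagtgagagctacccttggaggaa
In GRCm38.p6 these lie at chr14:34588682-34588741 on the minus strand for Ldb3, chr10:128493025-128493084 on the minus strand for Myl6, chr2:156775278-156775337 on the plus strand for Myl9 and chr17:71019433-71019492 on the plus strand for Myom1. Those of Asb2, Lmcd1, Fbxl22 and Cbr2 lie at chr12:103356031-103356090 on the minus strand, chr6:112273518-112273577 on the plus strand, chr9:66514781-66514840 on the minus strand and chr11:120732095-120732154 on the minus strand. A match says only that the letters are there. A window without one says nothing of boxes that depart from the strict pattern or lie elsewhere in the gene.

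The genes behind these sequences were in large part picked for being high in SMC1, and their levels were as follows. Myl6, the essential light chain of smooth muscle and non-muscle myosin, had 4641, 3761 and 3106 CPM in SMC1, against 708, 809 and 675 CPM in Progenitor, a log2 change of 2.39 ± 0.20. Myom1, a titin-binding protein of the striated M-band, had 346, 593 and 420.02 CPM in SMC1, against 2.78, 7.33 and 5.37 CPM in Progenitor, with a log2 change of 6.48 ± 0.40 (adjusted p = 1.01e-09). Asb2, a ubiquitin ligase adaptor that targets filamins, had 139.8, 95.9 and 138 CPM in SMC1, against 0.592, 2.07 and 1.83 CPM in Progenitor, a log2 change of 6.44 ± 0.39. Lmcd1, a LIM domain protein, had 513 ± 62.3 CPM in SMC1, against 8.18 ± 3.38 CPM in Progenitor, and Fbxl22, a muscle F-box protein, had 102 ± 15.7 CPM in SMC1, against 5.17 ± 1.66 CPM in Progenitor. Cbr2, a carbonyl reductase, had 599.6, 518 and 621 CPM in SMC1, against 5.24, 10.8 and 9.98 CPM in Progenitor, which gave a log2 change of 6.07 ± 0.39 (adjusted p = 1.42e-09). The groups did not overlap at any of these 6 genes, nor did they at 56.4% of all genes tested. Apart from Myl6, these genes were picked for a change of at least 16-fold, so their separation follows from that choice.

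Adhesion genes that couple the contractile filaments to the matrix were mostly higher in SMC1. Integrins, the matrix receptors, rose at 14 of 21 genes and fell at 3, with a median log2 change of 1.68. Itga8, which pairs with integrin beta-1 to bind RGD ligands (chromosome 2, 12106632 to 12301922), had 6153, 6938 and 8709.8 CPM in SMC1, against 44.2, 71.1 and 111 CPM in Progenitor, for a log2 change of 6.59 ± 0.35 (adjusted p = 8.17e-12). Npnt, the basement membrane protein nephronectin and a ligand of that integrin, was also among the 10 largest increases, with 1792, 1572 and 2253 CPM in SMC1, against 7.34, 17.5 and 24.6 CPM in Progenitor and a log2 change of 6.83 ± 0.47. The laminin-binding Itga7 had 526 ± 67.8 CPM in SMC1, against 11.8 ± 4.59 CPM in Progenitor, Itga3 had 179.8 ± 42.2 CPM in SMC1, against 6.66 ± 1.83 CPM in Progenitor, and the collagen receptor Itga1 had 193 ± 18.4 CPM in SMC1, against 23.5 ± 1.80 CPM in Progenitor. Other collagen-binding chains were lower, with Itga11 at 6.87 CPM in SMC1, against 98.2 CPM in Progenitor and Itga2 at 1.59 CPM in SMC1, against 11.3 CPM in Progenitor. Itgbl1, an integrin-like secreted protein, was at 822 CPM in SMC1 and 828 CPM in Progenitor and not called, with an interval of -0.51 to 0.49.

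Within focal adhesions 14 of 19 genes rose and 3 fell. Actn4, an alpha-actinin, had 2461 ± 279.6 CPM in SMC1, against 287 ± 53.3 CPM in Progenitor, Tns1, a tensin, had 1647 ± 319 CPM in SMC1, against 150.1 ± 52.3 CPM in Progenitor, and Lims2, also called PINCH-2, had 398 ± 82.1 CPM in SMC1, against 45.3 ± 4.07 CPM in Progenitor. Its paralogue Lims1 was not called, with 153 CPM in SMC1 and 119.6 CPM in Progenitor and an interval of -0.02 to 0.73. Ablim1, an actin-binding LIM protein, fell to 107 ± 1.30 CPM in SMC1, against 414 ± 47.9 CPM in Progenitor. All 9 tested genes of caveolae, the flask-shaped pits of the smooth muscle membrane, were higher, and 7 or 8 were in 12 of 14 alternatives. Cav3, the muscle caveolin, had 39.3, 32.1 and 27.1 CPM in SMC1, against 0.729, 0.867 and 1.20 CPM in Progenitor, a log2 change of 5.15 ± 0.30, against 2.79 for Cav2 and 1.84 for Cav1. Of the dystrophin complex, which ties actin to laminin, 11 of 13 genes were higher. Dmd, dystrophin itself, had 487, 834 and 533 CPM in SMC1, against 44.6, 39.3 and 40.9 CPM in Progenitor, with a log2 change of 3.89 ± 0.22 (adjusted p = 1.02e-11). Sarcoglycans split by subunit, since Sgca had 81.4 ± 10.6 CPM in SMC1, against 1.91 ± 0.811 CPM in Progenitor, while Sgce fell to 129.5 ± 5.96 CPM in SMC1, against 342 ± 41.9 CPM in Progenitor (adjusted p = 4.55e-07). The syntrophins split too, with Sntb1 at 117 CPM in SMC1, against 2.42 CPM in Progenitor and Sntb2 at 66.5 CPM in SMC1, against 141 CPM in Progenitor.

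Genes of membrane excitability and calcium handling followed. Potassium channel genes rose at 16 of 27 tested members and fell at 4. Kcnma1, the pore of the calcium-activated BK channel that opposes contraction, had 159, 170.3 and 195 CPM in SMC1, against 4.19, 5.07 and 5.62 CPM in Progenitor, which gave a log2 change of 5.14 ± 0.19 (adjusted p = 4.87e-13). Its smooth muscle beta-1 subunit Kcnmb1 had 503, 496 and 568 CPM in SMC1, against 3.01, 9.53 and 5.75 CPM in Progenitor, a log2 change of 6.44 ± 0.33. Kcnh2, the hERG channel, had 203, 154 and 224 CPM in SMC1, against 0.319, 1.53 and 2.27 CPM in Progenitor, the largest log2 change of the genes named by rank at 7.21 ± 0.40 (adjusted p = 1.8e-10). Kcnab1, a voltage-gated channel beta subunit, had 468 ± 25.2 CPM in SMC1, against 15.5 ± 2.65 CPM in Progenitor. Kcnd1, a transient outward channel, was lower with 2.35 CPM in SMC1, against 9.47 CPM in Progenitor, and Kcne4, an ancillary subunit, was not called at 73.9 CPM in SMC1 and 62.9 CPM in Progenitor, with an interval of -0.13 to 0.59.

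Calcium genes rose at 19 of 28 tested members. Cacna1c, the pore of the L-type channel that admits calcium on depolarisation (picked after its values were seen), had 26.5, 41.5 and 32.7 CPM in SMC1, against 6.84, 6.33 and 6.70 CPM in Progenitor, a log2 change of 2.34 ± 0.21. Its accessory subunits Cacnb2 and Cacna2d1 were higher, with Cacnb2 at 32.7 CPM in SMC1, against 1.82 CPM in Progenitor and Cacna2d1 at 102 CPM in SMC1, against 24.2 CPM in Progenitor. Jph2, which holds the store membrane to the surface membrane, had 258, 184 and 245 CPM in SMC1, against 1.46, 5.53 and 3.66 CPM in Progenitor, a log2 change of 6.05 ± 0.35. Casq1, the calsequestrin known from skeletal muscle stores, had 83.8 ± 10.4 CPM in SMC1, against 1.85 ± 1.001 CPM in Progenitor. The T-type channel Cacna1g was lower with 0.535 CPM in SMC1, against 5.78 CPM in Progenitor, and so was the store release channel Itpr2 with 10.7 CPM in SMC1, against 46.7 CPM in Progenitor (adjusted p = 1.37e-08). The store sensor Stim1 was not called at 65.0 CPM in SMC1 and 71.7 CPM in Progenitor, nor was the plasma membrane pump Atp2b1 at 87.9 CPM in SMC1 and 92.7 CPM in Progenitor, with intervals of -0.50 to 0.22 and -0.42 to 0.27.

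Genes that translate vasodilator and vasoconstrictor signals were also examined. Gucy1a1 and Gucy1b1, which together form the nitric oxide receptor guanylate cyclase, were higher, with Gucy1a1 at 318, 288 and 390.03 CPM in SMC1, against 11.1, 11.9 and 14.2 CPM in Progenitor and Gucy1b1 at 217, 271 and 217 CPM in SMC1, against 7.47, 7.80 and 8.84 CPM in Progenitor. Both were more than an order of magnitude higher in each SMC1 library, with log2 changes of 4.74 ± 0.22 and 4.87 ± 0.21. The alternative subunit Gucy1a2 was not called, at 3.73 CPM in SMC1 and 3.99 CPM in Progenitor. Cyclic nucleotide phosphodiesterases Pde3a and Pde5a were higher, with Pde3a at 393 CPM in SMC1, against 32.0 CPM in Progenitor and Pde5a at 94.3 CPM in SMC1, against 14.3 CPM in Progenitor. Prkg2, the type II cGMP kinase, was lower with 0.611, 0.513 and 0.176 CPM in SMC1, against 6.15, 6.47 and 7.33 CPM in Progenitor (adjusted p = 1.71e-08).

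Receptors for vasoactive ligands did not move one way, with 15 higher and 17 lower of 40 tested and a median log2 change of 0.18. Calls made up 80% of these receptors, against 48.3% of all genes. P2rx1, the ATP-gated channel of sympathetic transmission, had 157, 98.4 and 119 CPM in SMC1, against 1.73, 2.33 and 2.15 CPM in Progenitor, for a log2 change of 5.92 ± 0.27 (adjusted p = 8.63e-13). Ramp1, the partner of the calcitonin gene-related peptide receptor, had 373 ± 48.8 CPM in SMC1, against 20.6 ± 3.71 CPM in Progenitor. In Progenitor the vasopressin receptor Avpr1a and the prostaglandin F receptor Ptgfr led, with Avpr1a at 2.29, 0.979 and 1.23 CPM in SMC1, against 80.3, 89.2 and 109 CPM in Progenitor and Ptgfr at 2.70, 2.24 and 1.70 CPM in SMC1, against 178, 129 and 155 CPM in Progenitor. Their log2 changes were -5.94 ± 0.26 and -6.11 ± 0.26, and the prostacyclin receptor Ptgir (1.80 CPM in SMC1, against 29.9 CPM in Progenitor) and the adenosine receptor Adora2b (2.07 CPM in SMC1, against 19.1 CPM in Progenitor) were lower as well. The endothelin receptor Ednra was not called, at 34.4 CPM in SMC1 and 30.4 CPM in Progenitor and with an interval of -0.30 to 0.66.

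Angiotensin II receptor genes were picked after their values were seen because they differed in direction. Agtr1b had 17.1, 15.99 and 13.8 CPM in SMC1, against 0.547, 0.867 and 0.758 CPM in Progenitor, with a log2 change of 4.45 ± 0.32 (adjusted p = 3.74e-10), while Agtr1a had 2.95, 1.91 and 2.99 CPM in SMC1, against 24.4, 15.2 and 18.5 CPM in Progenitor, which gave a log2 change of -2.90 ± 0.28 (adjusted p = 4.52e-08). Both encode the type 1 receptor in mice, and their similar coding regions could split reads between them. Agtr2, the type 2 receptor, had 0.102, 0.0466 and 0.117 CPM in SMC1, against 10.3, 7.80 and 16.5 CPM in Progenitor, where the SMC1 libraries held 2, 1 and 2 counts. Tbxa2r, the thromboxane receptor, chosen in the same way, had 54.1 ± 13.6 CPM in SMC1, against 4.56 ± 1.38 CPM in Progenitor.

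Rgs proteins, which switch off G proteins, rose at 7 and fell at 3 of 16 tested genes (62.5% called, against 48.3% of all genes). Rgs5, known from pericytes and arterial muscle, had 1201, 1836 and 1564 CPM in SMC1, against 11.3, 26.9 and 26.2 CPM in Progenitor, for a log2 change of 6.17 ± 0.39 (adjusted p = 6.88e-10), and Rgs4 had 239 ± 9.58 CPM in SMC1, against 6.92 ± 1.27 CPM in Progenitor. Rgs10 was lower with 3.59 CPM in SMC1, against 10.6 CPM in Progenitor. Of the gap junction genes, Gja4 (connexin 37) and Gjc1 (connexin 45) were higher, with Gja4 at 51.4 CPM in SMC1, against 5.20 CPM in Progenitor and Gjc1 at 78.0 CPM in SMC1, against 19.2 CPM in Progenitor. Gja1 (connexin 43) was not called at 489 CPM in SMC1 and 402 CPM in Progenitor, and the pannexin Panx1 was lower with 1.48 CPM in SMC1, against 19.96 CPM in Progenitor.

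Transcription factors of mesenchymal cells were called on both sides, with 15 higher and 20 lower of 43 tested (81.4% called, against 48.3% of all genes). Their median log2 change was -0.22, and upper-quartile scaling gave 10 higher. Tcf21, a bHLH factor of fibroblast and adipose precursors, had 0.305, 0.0933 and 0.586 CPM in SMC1, against 21.6, 21.5 and 25.96 CPM in Progenitor, with a log2 change of -6.17 ± 0.39 (adjusted p = 9.83e-11). SMC1 replicate 2 held 2 counts of it. Zfp521, a zinc finger inhibitor of adipose commitment, had 4.03 ± 0.786 CPM in SMC1, against 62.9 ± 11.6 CPM in Progenitor, and the homeobox gene Meox2 had 7.91 ± 3.16 CPM in SMC1, against 74.5 ± 5.997 CPM in Progenitor. On the SMC1 side stood Scx, the bHLH factor of tendon, with 54.3, 39.7 and 32.0 CPM in SMC1, against 0.547, 1.13 and 0.821 CPM in Progenitor and a log2 change of 5.69 ± 0.35 (adjusted p = 8.11e-11), Foxc1 with 135 ± 21.6 CPM in SMC1, against 23.4 ± 3.91 CPM in Progenitor and Foxc2 with 37.8 ± 5.71 CPM in SMC1, against 4.87 ± 1.67 CPM in Progenitor. Id3, an inhibitor of bHLH factors, was not called at 696 CPM in SMC1 and 612 CPM in Progenitor, with an interval of -0.19 to 0.56.

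Fibrillar and some other collagens and the enzymes that process them were lower in SMC1 at 24 of 34 genes and higher at 2. Col3a1 had 6075, 4569 and 5705 CPM in SMC1, against 24307, 26303 and 38789 CPM in Progenitor, which gave a log2 change of -2.45 ± 0.27 (adjusted p = 1.65e-07), and Col1a2 had 3092 ± 810.3 CPM in SMC1, against 10762 ± 2985 CPM in Progenitor. Pcolce, which speeds the trimming of procollagen, fell more, to 51.1 ± 19.6 CPM in SMC1, against 1383 ± 205 CPM in Progenitor. Col5a3 and Col6a6 were lower, with Col5a3 at 5.97 CPM in SMC1, against 229 CPM in Progenitor and Col6a6 at 12.7 CPM in SMC1, against 171 CPM in Progenitor. The exceptions were Col18a1, whose C-terminal fragment is endostatin, with 3316, 2061 and 3244 CPM in SMC1, against 93.8, 138 and 178 CPM in Progenitor and a log2 change of 4.40 ± 0.26, and the lysyl hydroxylase Plod2 with 139 CPM in SMC1, against 86.4 CPM in Progenitor. Col5a1 was not called at 482 CPM in SMC1 and 721 CPM in Progenitor (adjusted p = 0.0732), and adjusted p fell below 0.05 in 8 of 14 alternatives.

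Small leucine-rich proteoglycans, which space collagen fibrils, fell at 9 of 13 genes. Lum, lumican, had 122, 76.1 and 55.1 CPM in SMC1, against 7575, 4881 and 5619 CPM in Progenitor, for a log2 change of -6.16 ± 0.33 (adjusted p = 7.54e-12), and Podn had 10.8 ± 2.12 CPM in SMC1, against 203 ± 49.1 CPM in Progenitor. Epyc, which encodes epiphycan, was among the 10 largest decreases with 0.206 CPM in SMC1, against 73.2 CPM in Progenitor, but 40.6% of its exon bases overlap another gene. Bgn, biglycan, and Prelp rose, with Bgn at 2192 ± 607 CPM in SMC1, against 965 ± 217 CPM in Progenitor and Prelp at 718 ± 267 CPM in SMC1, against 345 ± 41.5 CPM in Progenitor. Sparc, a collagen chaperone of the basement membrane, was abundant in both groups and fell modestly to 4855 ± 719 CPM in SMC1, against 9053 ± 1299 CPM in Progenitor (adjusted p = 0.00373).

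Elastic fibre genes fell at 11 and rose at 6 of 22 tested members (77.3% called, against 48.3% of all genes). Of all genes 23.1% were lower and 25.3% higher. Eln, elastin, which fills the lamellae of the arterial media, had 5388, 3759.9 and 4806 CPM in SMC1, against 150.03, 274 and 295 CPM in Progenitor, with a log2 change of 4.28 ± 0.33 (adjusted p = 2.81e-09), and Ltbp1, which holds latent TGF-beta in the matrix, had 2448 ± 417 CPM in SMC1, against 400.3 ± 146 CPM in Progenitor. Microfibril and fibulin genes of Progenitor included Fbln1 with 33.8 ± 16.4 CPM in SMC1, against 921 ± 202 CPM in Progenitor, Efemp1 with 21.9 ± 10.6 CPM in SMC1, against 532 ± 70.0 CPM in Progenitor and Mfap2 with 9.27 ± 3.51 CPM in SMC1, against 106 ± 23.1 CPM in Progenitor. The crosslinking enzyme Lox was not called at 324 CPM in SMC1 and 344 CPM in Progenitor, with an interval of -0.55 to 0.39, and neither was Fbln5, which assembles elastin, at 1544 CPM in SMC1 and 1177 CPM in Progenitor.

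Basement membrane genes rose at 10 and fell at 11 of 29 (72.4% called, against 48.3% of all genes), with related genes on opposite sides. Smoc1 had 736, 606 and 929.9 CPM in SMC1, against 9.39, 14.3 and 20.1 CPM in Progenitor, while Smoc2 had 72.8, 47.6 and 52.0 CPM in SMC1, against 2999, 2154 and 3157 CPM in Progenitor, and the log2 changes of these related calcium-binding proteins were 5.70 ± 0.36 and -5.59 ± 0.32. Nid1, the nidogen that joins laminin to collagen IV, fell to 117 ± 27.4 CPM in SMC1, against 2598 ± 682 CPM in Progenitor, and the laminin chain Lamb1 to 12.7 ± 5.36 CPM in SMC1, against 345 ± 116 CPM in Progenitor. Col4a6 rose to 377 ± 28.4 CPM in SMC1, against 37.4 ± 15.1 CPM in Progenitor, while the major collagen IV chain Col4a1 was not called at 1147 CPM in SMC1 and 1211 CPM in Progenitor, with an interval of -0.55 to 0.39. Matricellular and tendon-type matrix genes rose at 9 and fell at 11 of 27 tested (74.1% called, against 48.3% of all genes), with a median log2 change of -0.29. Some of the single increases were large. Sost, sclerostin, an inhibitor of Wnt signalling known from osteocytes, had 361, 331 and 439 CPM in SMC1, against 1.003, 4.73 and 4.86 CPM in Progenitor, which gave a log2 change of 6.78 ± 0.46 (adjusted p = 7.44e-09). Ccn3 had 2909 ± 305 CPM in SMC1, against 72.7 ± 9.92 CPM in Progenitor, and the calcification inhibitor Mgp, chosen after its values were seen, had 2114 ± 263 CPM in SMC1, against 507 ± 144 CPM in Progenitor. Cilp, a cartilage-type matrix protein, fell to 4.81 ± 2.28 CPM in SMC1, against 256 ± 79.4 CPM in Progenitor. Fibronectin (Fn1) was not called at 1808 CPM in SMC1 and 1657 CPM in Progenitor, with an interval of -0.51 to 0.76.

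Matrix proteases and their inhibitors fell at 24 of 43 genes and rose at 13. Ctsk, the collagen-cleaving cathepsin K, had 28.6, 24.9 and 20.4 CPM in SMC1, against 545, 487 and 412 CPM in Progenitor, for a log2 change of -4.29 ± 0.22 (adjusted p = 3.85e-12), and Adamts12 had 4.24 CPM in SMC1, against 70.3 CPM in Progenitor. Mmp17, a membrane-anchored metalloprotease, rose instead to 266 ± 71.4 CPM in SMC1, against 9.58 ± 1.94 CPM in Progenitor. Tissue inhibitors of metalloproteases moved both ways, since Timp4 had 94.6 CPM in SMC1, against 4.42 CPM in Progenitor, while Timp1 had 12.8 CPM in SMC1, against 102 CPM in Progenitor, and Timp2 had 1308 CPM in SMC1, against 4235 CPM in Progenitor. Genes of hyaluronan and heparan sulfate proteoglycans rose at 12 and fell at 5 of 24 (70.8% called, against 48.3% of all genes), with a median log2 change of 0.45. Cemip2, a membrane protein linked to hyaluronan turnover, was higher with 68.5 ± 6.24 CPM in SMC1, against 13.6 ± 2.96 CPM in Progenitor. Against that majority the hyaluronan synthases Has1 and Has2 were lower, with Has1 at 11.4, 6.43 and 4.39 CPM in SMC1, against 329.8, 399.6 and 386 CPM in Progenitor and Has2 at 1.37, 0.793 and 0.761 CPM in SMC1, against 102, 69.6 and 73.9 CPM in Progenitor. Their log2 changes were -5.64 ± 0.29 and -6.38 ± 0.32, and every Progenitor library stood more than an order of magnitude above every SMC1 library for both genes.

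Genes of innate defence were mostly lower in SMC1. Chemokine ligands and scavenging receptors fell at 19 of 23 tested genes and none rose, with a median log2 change of -3.70. Cxcl14 had 1.27, 0.420 and 0.586 CPM in SMC1, against 158, 178 and 179 CPM in Progenitor, with a log2 change of -7.81 ± 0.31 (adjusted p = 4.87e-13). Ccl2, which attracts monocytes, had 3.82, 2.38 and 2.23 CPM in SMC1, against 136, 139.6 and 131 CPM in Progenitor, which gave a log2 change of -5.59 ± 0.27 (adjusted p = 2.02e-12), and Ccl7 had 2.77 ± 1.18 CPM in SMC1, against 226 ± 43.1 CPM in Progenitor. Cxcl12, the retention factor of haematopoietic cells, had 81.7 ± 14.5 CPM in SMC1, against 916 ± 128 CPM in Progenitor, and its scavenger Ackr3 had 30.3 ± 11.1 CPM in SMC1, against 653 ± 90.5 CPM in Progenitor. Cxcl13, which attracts B cells, had 9.47, 2.28 and 2.87 CPM in SMC1, against 1347, 828 and 697 CPM in Progenitor (adjusted p = 1.56e-05). Cxcl2 had 19.7, 3.36 and 3.92 CPM in SMC1, against 10.4, 12.7 and 10.1 CPM in Progenitor and was not called, with an interval of -1.55 to 0.97. Without SMC1 replicate 1, the library high in leukocyte RNA, its log2 change was -1.67 (adjusted p = 0.000527).

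Complement genes fell at 13 and rose at 6 of 26 tested (73.1% called, against 48.3% of all genes). C3, the hub of the cascade, had 168, 72.3 and 74.2 CPM in SMC1, against 3957, 5059 and 7059 CPM in Progenitor, for a log2 change of -5.68 ± 0.39 (adjusted p = 9.99e-10), and C7 had 32.0 ± 10.8 CPM in SMC1, against 2039.5 ± 459 CPM in Progenitor. Serping1, the C1 inhibitor, had 302 ± 61.8 CPM in SMC1, against 4177 ± 391 CPM in Progenitor, and the C1 protease C1ra had 76.5 ± 13.0 CPM in SMC1, against 960.2 ± 104 CPM in Progenitor, where a near-identical copy of the gene may take part of the reads. The increases included the protective proteins Cd59a with 182 ± 11.6 CPM in SMC1, against 31.4 ± 1.43 CPM in Progenitor and Clu, clusterin, with 1186 ± 189 CPM in SMC1, against 169.8 ± 21.005 CPM in Progenitor. They also included the macrophage genes C1qa and C1qc; C1qa had 14.2, 4.38 and 5.21 CPM in SMC1, against 0.911, 2.80 and 2.72 CPM in Progenitor. Without SMC1 replicate 1, 3 complement genes were called higher, and C1qa was not among them (adjusted p = 0.0721).

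Cytokines of the IL-1 and IL-6 families and their receptors fell at 17 of 24 genes. Il33, an alarmin of stromal cells, had 14.7, 9.93 and 10.7 CPM in SMC1, against 355, 303 and 302 CPM in Progenitor, with a log2 change of -4.76 ± 0.23 (adjusted p = 1.44e-12). Il6 had 17.4, 9.51 and 8.61 CPM in SMC1, against 275, 276 and 246 CPM in Progenitor, and the receptor Il1rl2 had 1.27 ± 0.429 CPM in SMC1, against 64.7 ± 12.5 CPM in Progenitor. Of the list, 2 rose, among them Il1b with 13.5, 1.82 and 1.29 CPM in SMC1, against 1.05, 1.47 and 0.758 CPM in Progenitor, whose log2 change was 0.44 without SMC1 replicate 1 (adjusted p = 0.477). Interferon-inducible genes fell at 26 of 35 and none rose. Ifitm3, a restriction factor, had 172 ± 44.8 CPM in SMC1, against 1023 ± 214 CPM in Progenitor, Isg20, an exonuclease, had 2.32 ± 0.746 CPM in SMC1, against 36.8 ± 4.92 CPM in Progenitor, and the immunoproteasome subunit Psmb9 had 5.87 CPM in SMC1, against 29.9 CPM in Progenitor. Ifit2 was not called at 41.6 CPM in SMC1 and 44.3 CPM in Progenitor, with an interval of -0.48 to 0.30. The related DNA sensor genes Ifi205, Ifi204 and Ifi202b were among the 10 largest decreases. Ifi204 had 3.50 ± 2.05 CPM in SMC1, against 544 ± 151 CPM in Progenitor, and reads of this family of neighbours can be split between copies.

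Growth factor families were read by role, ligands before receptors. Fgf10, a ligand that adipose precursors secrete, had 0.356, 0.513 and 0.410 CPM in SMC1, against 74.8, 42.1 and 58.2 CPM in Progenitor, which gave a log2 change of -7.07 ± 0.30 (adjusted p = 5.31e-13), and Fgf7 had 4.69 ± 0.508 CPM in SMC1, against 110.2 ± 22.3 CPM in Progenitor. Fgf1 had the opposite order with 103, 100.6 and 99.0 CPM in SMC1, against 17.9, 18.3 and 14.7 CPM in Progenitor (adjusted p = 2.73e-09), and so did the intracellular member Fgf13 with 24.3 CPM in SMC1, against 0.561 CPM in Progenitor. The receptor Fgfr1 was not called at 151 CPM in SMC1 and 201 CPM in Progenitor, with an interval of -0.85 to 0.03, and its log2 change was -0.62 without Progenitor replicate 1 (adjusted p = 0.0148). In all 6 FGF genes rose and 9 fell of 22 (68.2% called, against 48.3% of all genes), and 14 fell with upper-quartile scaling. Insulin-like growth factor 1 (Igf1) had 34.0, 28.3 and 29.8 CPM in SMC1, against 849, 658 and 671 CPM in Progenitor, a log2 change of -4.56 ± 0.28, and its receptor Igf1r had 64.8, 68.5 and 67.7 CPM in SMC1, against 12.3, 25.1 and 19.8 CPM in Progenitor, a log2 change of 1.82 ± 0.20. The binding proteins Igfbp3, Igfbp4 and Igfbp6 were lower, the last with 25.97 ± 14.7 CPM in SMC1, against 1177 ± 275 CPM in Progenitor. Pappa, which cleaves binding proteins, had 2.499 CPM in SMC1, against 33.3 CPM in Progenitor, while its relative Pappa2 had 21.5 CPM in SMC1, against 2.91 CPM in Progenitor.

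Genes of the PDGF and VEGF families, listed together with angiopoietin and angiopoietin-like genes, rose at 7 and fell at 13 of 25. Calls made up 80% of this list, against 48.3% of all genes. Angpt2, an angiopoietin, had 164, 147 and 141 CPM in SMC1, against 10.7, 10.3 and 9.92 CPM in Progenitor, for a log2 change of 3.87 ± 0.18 (adjusted p = 8.95e-13). Vegfa had 22.5, 20.9 and 21.2 CPM in SMC1, against 119, 153 and 165 CPM in Progenitor, with a log2 change of -2.76 ± 0.17 (adjusted p = 4.31e-11), and Angptl4, an inhibitor of lipoprotein lipase, had 17.4 ± 7.67 CPM in SMC1, against 276 ± 41.0 CPM in Progenitor. Pdgfrb, the mural cell receptor, was not called at 443 CPM in SMC1 and 304 CPM in Progenitor, with an interval of 0.01 to 1.07. The log2 change of Pdgfrb came to 0.98 without Progenitor replicate 3 (adjusted p = 0.00174).

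Wnt genes of each role stood on both sides. Among ligands and their R-spondin amplifiers, Wnt11 and Rspo1 were lower, with Wnt11 at 2.70, 1.87 and 1.17 CPM in SMC1, against 72.4, 88.1 and 79.5 CPM in Progenitor and Rspo1 at 2.47 CPM in SMC1, against 25.4 CPM in Progenitor, and the kinase receptor Ror2 had 1.28 CPM in SMC1, against 15.8 CPM in Progenitor. The Frizzled receptors Fzd6 and Fzd8 were higher, with Fzd6 at 19.3 CPM in SMC1, against 2.04 CPM in Progenitor and Fzd8 at 92.9 CPM in SMC1, against 19.3 CPM in Progenitor. Among secreted inhibitors, Dkk2 had 2.29, 1.68 and 0.996 CPM in SMC1, against 92.4, 70.3 and 74.7 CPM in Progenitor and Sfrp1 had 22.7, 17.95 and 20.97 CPM in SMC1, against 417, 699.9 and 593 CPM in Progenitor, whereas Sost, given above, and Wif1, chosen after its values were seen, were higher, Wif1 with 77.9, 51.6 and 52.3 CPM in SMC1, against 1.69, 1.40 and 0.568 CPM in Progenitor. Lgr6, an R-spondin receptor, and the ligand Wnt16, both also chosen afterwards, were higher, with Lgr6 at 384 ± 87.7 CPM in SMC1, against 4.07 ± 2.31 CPM in Progenitor and Wnt16 at 24.96 ± 2.79 CPM in SMC1, against 0.437 ± 0.143 CPM in Progenitor. Over the whole list 17 genes rose and 20 fell of 47 (78.7% called, against 48.3% of all genes).

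BMP and TGF-beta genes rose at 12 and fell at 18 of 43 (69.8% called, against 48.3% of all genes). Gdf10, a BMP relative, had 58.2, 26.8 and 39.9 CPM in SMC1, against 1013, 1327 and 1304 CPM in Progenitor, which gave a log2 change of -4.87 ± 0.37 (adjusted p = 7.53e-09). The antagonists Fst and Chrdl1 were lower too, with Fst at 7.88 CPM in SMC1, against 141 CPM in Progenitor and Chrdl1 at 50.2 CPM in SMC1, against 222 CPM in Progenitor. Bmp3 and the receptor Bmpr1b rose, with Bmp3 at 60.3 ± 15.3 CPM in SMC1, against 3.80 ± 1.256 CPM in Progenitor and Bmpr1b at 79.3 ± 15.7 CPM in SMC1, against 3.99 ± 1.20 CPM in Progenitor. Notch genes rose at 9 and fell at 2 of 18 (61.1% called, against 48.3% of all genes). Notch3, the receptor of arterial smooth muscle, had 58.1, 41.4 and 55.4 CPM in SMC1, against 6.61, 6.73 and 10.2 CPM in Progenitor, for a log2 change of 2.72 ± 0.24 (adjusted p = 7.84e-09), and Notch1 was not called at 21.02 CPM in SMC1 and 20.1 CPM in Progenitor. The glycosyltransferase Lfng was lower with 2.69 CPM in SMC1, against 10.4 CPM in Progenitor. Hedgehog genes rose at 3 and fell at 7 of 18 (55.6% called, near the 48.3% of all genes). Scube3, a secreted EGF-domain protein, had 194, 165 and 263 CPM in SMC1, against 1.37, 5.001 and 2.84 CPM in Progenitor, with a log2 change of 6.12 ± 0.42 (adjusted p = 6.77e-09), and the ligand Ihh had 8.84 CPM in SMC1, against 0.253 CPM in Progenitor. The coreceptor Cdon was lower with 18.8 CPM in SMC1, against 78.4 CPM in Progenitor, and the effector Gli3 with 11.6 CPM in SMC1, against 34.5 CPM in Progenitor, while the transducer Smo was not called at 109 CPM in SMC1 and 105 CPM in Progenitor, with an interval of -0.29 to 0.40.

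**Figure D4:**
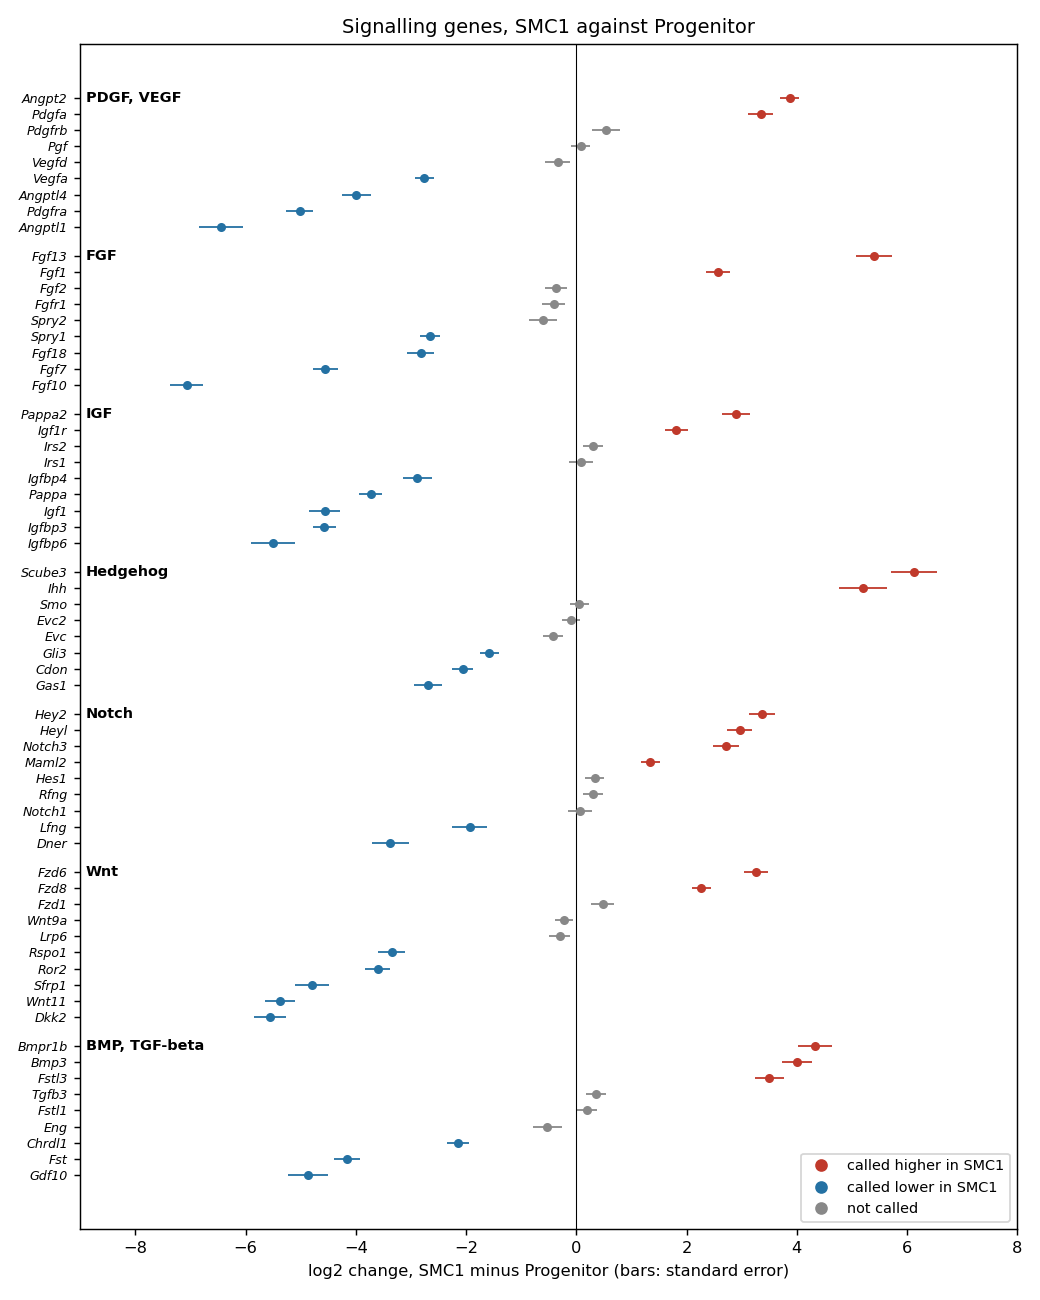
Log2 change, SMC1 minus Progenitor (x), of genes named by rule in 7 signalling families (y), with bars for the standard error; red and blue points were called higher and lower in SMC1, and grey points were not called. Each family holds members on both sides of 0, and the genes plotted run from Fgf10 at -7.07 to Scube3 at 6.12. The group marked PDGF, VEGF also holds angiopoietin and angiopoietin-like genes. Exons of Fstl3, Pdgfa, Angptl1, Spry1, Gas1, Irs1, Fgf2 and Tgfb3 overlap another gene over more than 10% of their length.

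Metabolic genes were read by pathway. Glycolysis and lactate genes rose at 20 and fell at 4 of 28 tested. Pygm, the muscle glycogen phosphorylase, had 167, 139.5 and 196 CPM in SMC1, against 12.6, 15.3 and 14.4 CPM in Progenitor, which gave a log2 change of 3.57 ± 0.21 (adjusted p = 1.37e-11), and its liver form Pygl was lower with 24.97 CPM in SMC1, against 50.6 CPM in Progenitor. The insulin-responsive glucose transporter Slc2a4 had 29.6 ± 4.93 CPM in SMC1, against 2.86 ± 1.23 CPM in Progenitor, and Slc2a1 had 78.9 ± 14.9 CPM in SMC1, against 17.3 ± 2.77 CPM in Progenitor. Lipid genes rose at 12 and fell at 14 of 38 (68.4% called, against 48.3% of all genes), with a median log2 change of 0.05. Plin4, a lipid droplet coat protein, had 179, 182 and 218 CPM in SMC1, against 2.23, 3.67 and 6.19 CPM in Progenitor, for a log2 change of 5.60 ± 0.27 (adjusted p = 3.03e-12), and Acsl1, which activates fatty acids, had 173 ± 18.7 CPM in SMC1, against 11.5 ± 4.48 CPM in Progenitor. G0s2, an inhibitor of triglyceride lipase, fell to 3.68 ± 2.23 CPM in SMC1, against 112 ± 14.9 CPM in Progenitor. Cpt1a, the gate to mitochondrial oxidation, was not called at 111 CPM in SMC1 and 101.1 CPM in Progenitor, with an interval of -0.26 to 0.52.

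Respiratory chain genes rose at 13 of 29, by 2-fold or more at only 3, and the count was 6 without SMC1 replicate 1 and 6 with upper-quartile scaling. Calls in either direction made up 48.3% of the list, the same as the 48.3% of all genes. The list was one-sided, with 13 higher and 1 lower, whereas of all genes 25.3% were higher and 23.1% lower. Ppargc1a, the coactivator of mitochondrial genes, had 7.99, 8.21 and 7.09 CPM in SMC1, against 1.32, 0.867 and 1.71 CPM in Progenitor (adjusted p = 9.93e-08), and Ndufa4l2, an alternative subunit, was lower with 1.52 CPM in SMC1, against 12.8 CPM in Progenitor. Enzymes of detoxification and antioxidant defence fell at 23 of 37. Sult1e1, the oestrogen sulfotransferase (chromosome 5, 87575969 to 87591594), had 2.55, 0.839 and 0.937 CPM in SMC1, against 688, 448 and 455 CPM in Progenitor, and its log2 change of -8.51 ± 0.43 (adjusted p = 5.61e-11) was the lowest of the genes named by rank. Gpx3, the secreted glutathione peroxidase, had 106, 54.9 and 55.2 CPM in SMC1, against 4124, 4768 and 4154 CPM in Progenitor, and Adh1, an alcohol dehydrogenase that also acts on retinol, had 3.74 ± 1.81 CPM in SMC1, against 247 ± 80.9 CPM in Progenitor. The extracellular superoxide dismutase Sod3 rose to 1801 ± 571 CPM in SMC1, against 579.8 ± 96.3 CPM in Progenitor. Ribosomal protein genes fell at 23 of 32 and none rose, with a median log2 change of -0.64, and Rps18 had 90.0 ± 22.96 CPM in SMC1, against 218 ± 42.8 CPM in Progenitor.

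Further genes of the largest changes were as follows. Susd5, a membrane protein with a sushi domain, had 1238, 1014 and 1427 CPM in SMC1, against 4.42, 9.93 and 14.7 CPM in Progenitor, a log2 change of 6.999 ± 0.37. Itih4, an inter-alpha-trypsin inhibitor heavy chain known from liver, had 489 ± 82.2 CPM in SMC1, against 4.75 ± 2.91 CPM in Progenitor, and Slc22a3, a transporter of organic cations and monoamines, had 427 ± 96.1 CPM in SMC1, against 4.02 ± 1.35 CPM in Progenitor. Dstn, the actin-severing protein destrin, had 4087 ± 315 CPM in SMC1, against 379 ± 69.3 CPM in Progenitor. On the Progenitor side Apod, a lipocalin, had 18.2, 8.67 and 5.04 CPM in SMC1, against 3392, 1722 and 1562 CPM in Progenitor, with a log2 change of -7.70 ± 0.50 (adjusted p = 3.68e-09), and Inmt, which methylates indoles, had 5.26 ± 2.94 CPM in SMC1, against 939 ± 102 CPM in Progenitor. Ccl11, the chemokine eotaxin, had 8.25, 4.24 and 3.16 CPM in SMC1, against 1285, 738 and 677 CPM in Progenitor.

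The most abundant genes without a call were ranked after unnamed gene models and symbols that begin with mt- were passed over. They were the mitochondrial COX1 and CYTB, which encode respiratory chain subunits, and the immediate early genes Fos, Egr1 and Dusp1. COX1 had 3126 ± 521 CPM in SMC1 and 3139.6 ± 616 CPM in Progenitor, with an interval of -0.42 to 0.41 for the log2 change. Fos, a subunit of the AP-1 transcription factor, had 3089, 3037 and 2739 CPM in SMC1, against 2384, 2399 and 2633 CPM in Progenitor, an interval of -0.17 to 0.68. Egr1 had 1766 ± 305 CPM in SMC1 and 2341 ± 159 CPM in Progenitor, an interval of -0.83 to 0.02, and was called lower in 4 of 14 alternatives, by -0.61 without SMC1 replicate 2 (adjusted p = 0.0424), while Dusp1, a phosphatase of MAP kinases, had 2310.2 ± 215 CPM in SMC1 and 1767 ± 108 CPM in Progenitor (adjusted p = 0.0935). Immediate early and stress genes as a list had 5 higher and 9 lower of 28, 50% called, near the 48.3% of all genes. Myc, the growth regulator, was lower with 36.8, 27.6 and 29.1 CPM in SMC1, against 284, 275 and 309.5 CPM in Progenitor (adjusted p = 3.54e-11), and so was Socs3, a brake on cytokine signalling, with 201 ± 32.9 CPM in SMC1, against 540.1 ± 127 CPM in Progenitor. The small heat shock protein Hspb1 was higher with 1062, 1059 and 1273 CPM in SMC1, against 164, 188 and 161 CPM in Progenitor (adjusted p = 8.38e-11), as was Hspa1b with 1924 ± 208 CPM in SMC1, against 509 ± 64.9 CPM in Progenitor, whose near-identical neighbour Hspa1a may share its reads.

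**Figure D5:**
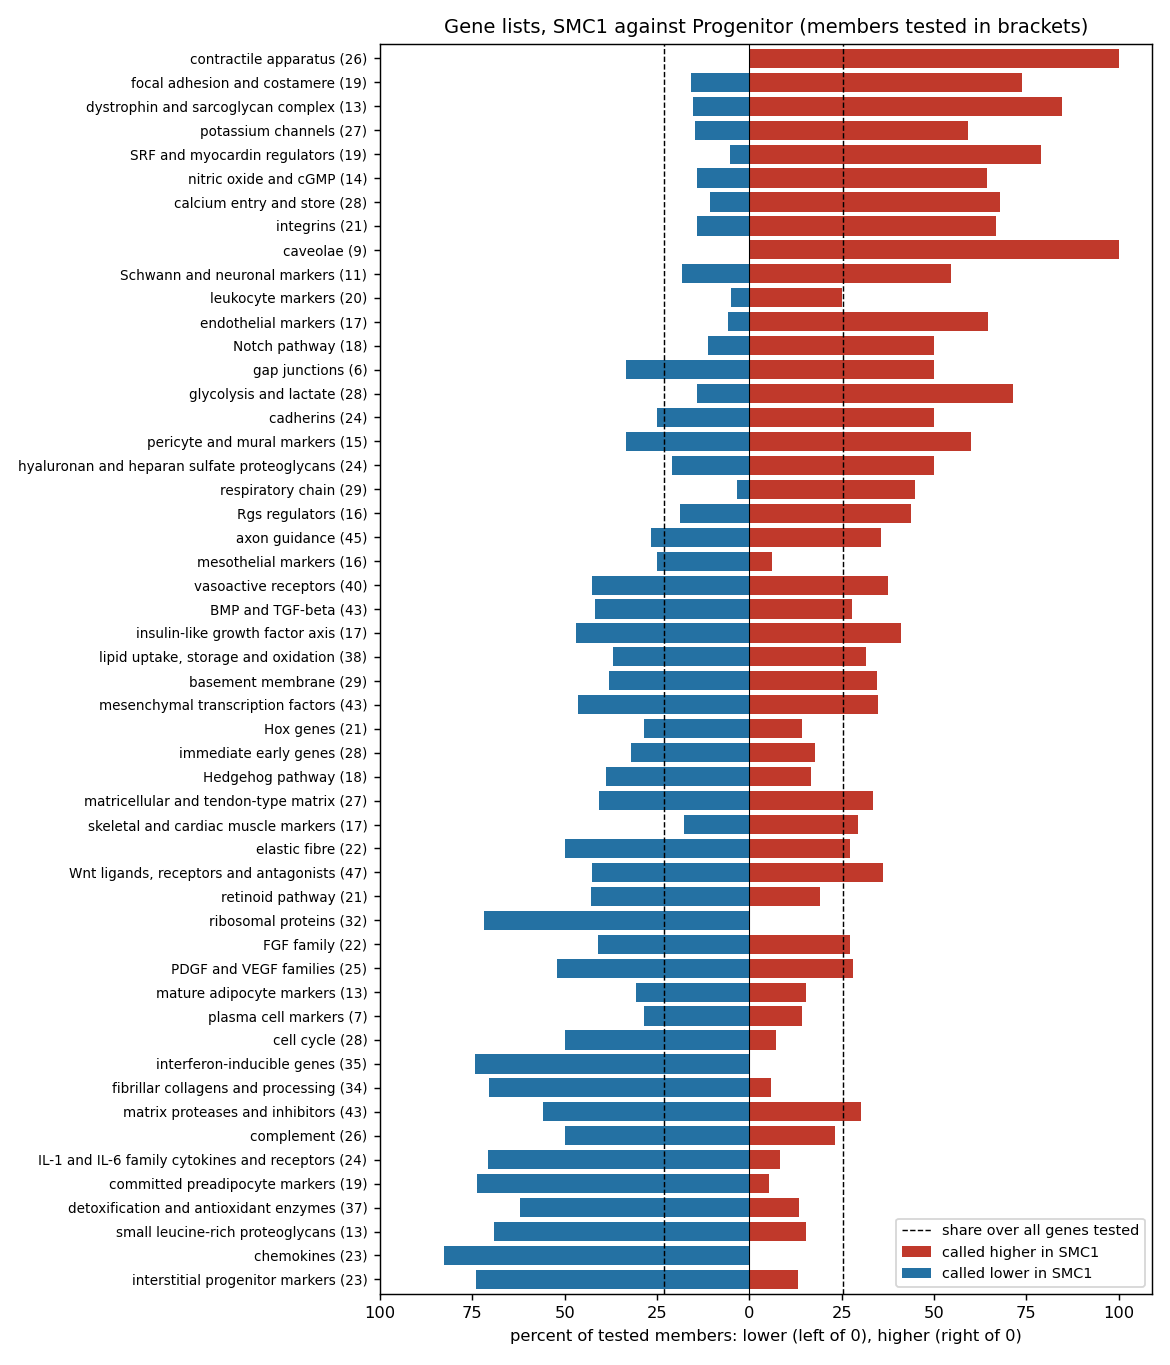
Percent of the tested members of gene lists (y, members tested in brackets) called higher in SMC1 (red, right of 0) and lower (blue, left of 0), ordered by median log2 change, with dashed lines at the shares of all genes, 25.3% higher and 23.1% lower. All contractile genes and, in the fit shown, all caveolar genes lie to the right, and no chemokine, interferon-inducible or ribosomal gene does.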

How the data were processed

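Per the labels' protocols, RNA was purified from sorted cells and libraries were made with a SMART-Seq v4 kit after poly(A) selection. That kit does not mark strand, so reads of overlapping genes cannot be told apart. The authors deposited raw counts, whole numbers per gene and library; their normalized tables were not used here. The build mm10 and the tools STAR 2.5.2a and DESeq2 1.26.0 appear in the submitters' processing notes, while the counting program and annotation are not given in the sources used here. Gene symbols are those deposited, or from GENCODE M21 for the 12078 of 33352 rows without one and for 26 rows whose symbol had become a date; 29 rows kept their ID only. Coordinates and exon overlaps come from that annotation.

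The counts of all 12 libraries were fitted with edgeR 4.0.16 (limma 3.58.1, R 4.3.3) after filterByExpr, which left 19016 genes, with TMM scaling and robust dispersions, 1 mean per group and 8 residual degrees of freedom (common biological coefficient of variation 0.206). The two-sided quasi-likelihood test contrasted SMC1 with Progenitor. The standard error is the size of the log2 change divided by the square root of F, and intervals are at 95%. CPM was computed on effective library sizes, and its log2 form added a prior count of 2. The code was tested on simulated data. Replicates differed beyond sampling noise (chi-square per degree of freedom at least 21.8), and, without molecular identifiers, amplified fragments cannot be taken as separate molecules. The alternatives were other scalings and filters, DESeq2 1.42.0, the 6 libraries alone, the Ao number as a block, and leaving out each of 6 replicates.

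The comparison, the lists and their members were chosen with earlier results of these data known. Named genes are the 10 highest and 10 lowest called changes without overlap of groups and with a mean of at least 64 CPM in the higher group, the 8 largest CPM differences each way, up to 6 called members of a list by p, up to 2 against its majority, up to 3 uncalled by level, members of paralogue families, 14 identity genes and the 5 most abundant uncalled genes. The rankings by change, by CPM difference and of uncalled genes passed over unnamed gene models and symbols that begin with mt-. Genes whose promoters are printed were added, and others chosen after their values were seen are marked as such. A few items are not reported here.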

Additional observations from a re-analysis of the deposited data

How the results depend on the processing

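In 14 alternatives the number of called genes stayed within 1.5 times the reported 9194 and ran from 7868 without SMC1 replicate 3 to 9664. Leaving out 1 replicate gave 7868 to 8615 calls, median-of-ratios scaling 9112, DESeq2 9257, no filter 9277, a 1 CPM filter 8646 and the 6 libraries alone 8587. The Ao number pairs libraries only by name. When group means were removed, libraries sharing a number correlated at 0.0246, 0.027 and 0.267, and only library 3 matched its own number best. With the number as a replicate block 9664 genes were called over 12 libraries and 8648 over the 6 alone. Of 545 genes followed, none called changed sign. The largest loss of calls among them, 17, came without SMC1 replicate 1, the library with the most leukocyte RNA; that loss included Laptm5, Sox18 and Robo4. The cause was not tested. Upper-quartile scaling moved the FGF count from 9 to 14 lower, the nitric oxide and cGMP count from 2 to 3 lower and the respiratory chain count from 1 to 2 lower. It moved counts called higher from 13 to 6 for the respiratory chain, 15 to 10 for mesenchymal transcription factors, 11 to 7 for endothelial, 6 to 4 for Schwann and neuronal, 5 to 3 for skeletal and cardiac muscle and 4 to 1 for retinoid genes. Genes under a few CPM are limited by depth, since 3 counts equal 0.137 to 0.20 CPM in these libraries.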

Other observations

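Axon guidance genes, which also steer vessels and their nerves, rose at 16 and fell at 12 of 45 tested (62.2% called, against 48.3% of all genes). Sema3f, a secreted repellent, had 308, 184 and 385 CPM in SMC1, against 8.02, 15.3 and 18.4 CPM in Progenitor, which gave a log2 change of 4.40 ± 0.30 (adjusted p = 6.66e-10). Efnb2, the ephrin of arterial cells, had 70.8, 66.7 and 79.3 CPM in SMC1, against 2.60, 5.80 and 7.52 CPM in Progenitor, a log2 change of 3.79 ± 0.28, and the netrin receptor Unc5c had 40.4 ± 3.42 CPM in SMC1, against 2.15 ± 0.813 CPM in Progenitor. Sema6d and Ntn4 were lower, with Sema6d at 6.12 CPM in SMC1, against 33.8 CPM in Progenitor and Ntn4 at 58.6 CPM in SMC1, against 181 CPM in Progenitor. Cadherins rose at 12 and fell at 6 of 24 (75% called, against 48.3% of all genes). Cdh6 had 65.1, 63.8 and 79.1 CPM in SMC1, against 1.05, 1.40 and 2.40 CPM in Progenitor and the GPI-anchored Cdh13 had 497 ± 103 CPM in SMC1, against 52.3 ± 12.9 CPM in Progenitor, while Cdh11, the cadherin of mesenchyme, fell to 26.6 ± 0.288 CPM in SMC1, against 103 ± 18.3 CPM in Progenitor (adjusted p = 8.96e-08). Cdh2, N-cadherin, was not called at 3.71 CPM in SMC1 and 4.50 CPM in Progenitor.

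Aldh1a1, an enzyme that makes retinoic acid, had 18.3, 12.3 and 10.7 CPM in SMC1, against 405, 329 and 360.2 CPM in Progenitor, for a log2 change of -4.73 ± 0.22 (adjusted p = 8.95e-13), Aldh1a3 had 1.52 ± 0.738 CPM in SMC1, against 39.1 ± 6.95 CPM in Progenitor and Rdh10 had 19.7 ± 1.97 CPM in SMC1, against 57.5 ± 4.65 CPM in Progenitor. In all 9 of 21 genes of the pathway fell (61.9% called in either direction, against 48.3% of all genes). The retinoid receptor Rxrb was among 4 that rose, none of which were called without SMC1 replicate 1. Hox genes were low in both groups, with 3 higher and 6 lower of 21 (42.9% called, against 48.3% of all genes). Hoxc8 and Hoxc5 differed, with Hoxc8 at 0.713, 0.653 and 0.469 CPM in SMC1, against 7.52, 10.7 and 5.68 CPM in Progenitor and Hoxc5 at 0.764, 0.653 and 0.351 CPM in SMC1, against 8.20, 6.80 and 9.16 CPM in Progenitor, both clear of SMC1 in every Progenitor library. Hoxb7 was higher with 14.3 ± 0.354 CPM in SMC1, against 8.10 ± 2.31 CPM in Progenitor (adjusted p = 0.00214). Hox genes lie among antisense transcripts, and the library kit does not mark strand. Cell cycle genes fell at 14 and rose at 2 of 28 (57.1% called, against 48.3% of all genes). Ccnb1, the mitotic cyclin, had 2.60, 0.933 and 1.58 CPM in SMC1, against 9.43, 5.93 and 6.76 CPM in Progenitor (adjusted p = 0.000138), and Ccnd2 rose to 288 ± 21.5 CPM in SMC1, against 117 ± 16.6 CPM in Progenitor (adjusted p = 3.96e-06). The cause of these differences was not tested.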
